A study of Danio rerio with 8 samples.

Results

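Hearts of zebrafish larvae 3 days old, 72 hours after fertilization, were compared with hearts of uninjured adults about 6 months old by bulk RNA sequencing. The comparison takes the 2 larval libraries, each made from about 500 pooled hearts, and the 2 libraries of adult control hearts, each made from 4 to 6 pooled hearts, of the 8 libraries in the series. The other 4 libraries come from adults whose ventricular cardiomyocytes had been ablated 3 or 7 days earlier with 5 mM metronidazole, in fish carrying a nitroreductase driven by the vmhc promoter. These injured hearts enter the fit for its estimate of spread, and their levels are given only where named. The larvae received no treatment, whereas the adult controls are labelled as vehicle controls, for which the protocol gives 0.1% dimethyl sulfoxide for 48 hours. The protocol also describes uninjured hearts as taken before metronidazole, so whether these fish had the vehicle is uncertain. The labels name wild-type AB fish, the ablation line vmhc:mCherry-NTR and the heat-shock lines hsWnt8:GFP and hsDKK1:GFP, and do not say which genotype each library had. Age, vehicle and the differing sequencing-run prefixes of the column names therefore cannot be told apart, although the labels state joint sequencing. No label says that the 2 libraries of a group came from separate clutches, so p-values measure the spread between these libraries, which may be technical.

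The zebrafish heart has a single atrium and a single ventricle. It beats before the first feeding and later grows, thickens and gains trabeculae, coronary vessels and resident immune cells. Muscle contracts when calcium released from the sarcoplasmic reticulum lets myosin of the thick filament pull on actin of the thin filament, and many proteins of both filaments are encoded by several related genes. Zebrafish carry an additional layer of such relatives, gene copies kept from a duplication of the teleost genome and usually named with a final a or b, and relatives often divide their work by tissue or by stage. In mammals, fetal and adult heart muscle use different relatives of myosin, troponin and metabolic enzymes, and the adult heart relies more on fat oxidation.

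Total counts were 17266995 and 19457858 in the larval libraries and 10868019 and 17734354 in the adult libraries. Counts were detected for 22919 and 23312 genes in larval hearts and for 20660 and 20818 genes in adult hearts, and the 50 most abundant genes took 20.7% and 20.7% against 36.9% and 39.1% of counts. Transcripts encoded in mitochondrial DNA took 7.59% and 7.70% against 14.9% and 15.3%. Levels are CPM, counts scaled to a common library size by TMM, a method that sets most genes near no change, and fold changes are log2 values of larval minus adult control from an edgeR quasi-likelihood fit, given ± standard error (SE), with Benjamini-Hochberg adjusted p-values and a threshold of 0.05. Higher and lower are used of genes past that threshold. Of 19330 genes tested, 11643 passed (60.2%), of which 6304 were higher in larval hearts (32.6% of genes tested) and 5339 lower (27.6%), and the median log2 fold change was 0.14. Scaling by library totals instead moved that median to 0.75, a shift of 0.60, and gave 8640 higher and 3389 lower genes, so the share of calls that were higher went from 54.1% to 71.8%. Since the share of genes that passed is this large, a call on a single gene is not rare, and counts over lists are read beside these percentages. The libraries of the groups did not overlap in 83.7% of all genes tested, nor in any of the 164 called genes that are named here with values or in a figure. Many of these 164 were picked by small p or large change, so their lack of overlap is no separate result.

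Markers of heart muscle were present in all 4 libraries, and for each list of another organ more members were higher in the larval ones than lower. The gene myl7, which encodes the regulatory myosin light chain of heart muscle and marks cardiomyocytes of both chambers, ranked 32 and 28 by counts in the larval libraries and 9 in each adult library. Its level was 1538 and 1629 CPM in larvae and 13067 and 19025 CPM in adults, without overlap (log2 fold change -3.34 ± 0.52, adjusted p = 0.00029). In bulk libraries, fewer cardiomyocytes and less of a transcript in each cardiomyocyte cannot be told apart.

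The RNA of other larval tissues was read from lists of genes that define them. Beside the counts of each list stand 32.6% higher and 27.6% lower over all genes tested. For the skeletal muscle defining markers, 17 of the 18 tested members were higher in larval hearts and 0 were lower (median log2 fold change 7.20, or 5.88 with members at 0 counts at their bound). The summed level was 829 and 753 CPM in larvae and 7.7 and 11.7 CPM in adults. Here 9 of its 24 genes had 0 counts in both adult libraries. In the wider skeletal muscle list, 29 of the 45 tested members were higher in larval hearts and 12 were lower (median log2 fold change 3.61). That wider list summed to 3201 and 3074 CPM in larvae and 6802 and 8772 CPM in adults, the larval values being the smaller. The fast skeletal light chain mylpfa stood at 439 and 427 CPM in larvae and 0.246 and 2.3 CPM in adults (log2 fold change 8.30 ± 0.73, adjusted p = 7.3e-06). The fast troponin gene tnni2a.4 had 0 counts in both adult libraries and 53.9 and 51.4 CPM in the larval ones, at least 511-fold higher against a floor of 3 counts over the adult group, a bound that covers counting error only.

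Eye genes were also detected, at unequal levels in the 2 larval libraries. For the lens, 31 of the 33 tested members were higher in larval hearts and 1 was lower (median log2 fold change 10.52, or 7.89 with members at 0 counts at their bound). The summed level was 2532 and 1165 CPM in larvae and 5.98 and 8.73 CPM in adults. Here 24 of its 42 genes had 0 counts in both adult libraries. The crystallin gene crygn2 stood at 254 and 125 CPM in larvae and 0.0819 and 0.236 CPM in adults, about as unequal between the larval libraries as the list. The photoreceptor genes went the other way between the same libraries, with opn1sw2, a cone opsin, at 3.27 and 37.4 CPM and rcvrn2, a recoverin, at 3.6 and 18.3 CPM, and both at or near 0 in adults. For retina and photoreceptors, 19 of the 31 tested members were higher in larval hearts and 2 were lower (median log2 fold change 4.61, or 3.34 with members at 0 counts at their bound). The number higher was 8 without larval library 2 and 11 without adult library 2. The summed level of the list was 40.2 and 441 CPM in larvae and 389 and 574 CPM in adults. Most of the adult sum came from 1 member, ckmt2a, which is given below with the creatine kinases. It stood at 1.67 and 8.58 CPM in larvae and 379 and 562 CPM in adults.

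Surface and gut tissues followed the same direction. In the skin and epidermis list, 41 of the 57 tested members were higher in larval hearts and 7 were lower (median log2 fold change 5.76, or 5.75 with members at 0 counts at their bound). The summed level was 8921 and 8179 CPM in larvae and 2895 and 5099.9 CPM in adults. The epidermal keratin gene krt4 stood at 1889.9 and 1747 CPM in larvae and 175 and 380.3 CPM in adults (log2 fold change 2.71 ± 0.38, adjusted p = 0.00016), so part of this list was abundant in adults too. The claudin gene cldni stood at 349 and 349 CPM in larvae and 0.41 and 0.413 CPM in adults (log2 fold change 9.71 ± 0.33, adjusted p = 2.3e-07). The actinodin gene and2, which encodes a protein of fin fold fibres, had the largest fitted rise under the naming rule, at 2131 and 1883 CPM in larvae and 0.246 and 0.118 CPM in adults (log2 fold change 13.45 ± 0.68, adjusted p = 4.5e-07).

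In the exocrine pancreas and gut list, 30 of the 35 tested members were higher in larval hearts and 0 were lower (median log2 fold change 5.87, or 5.25 with members at 0 counts at their bound). The summed level was 1547 and 1226 CPM in larvae and 66 and 57.3 CPM in adults. The gut gene tm4sf4 stood at 477 and 419 CPM in larval libraries with 0 counts in adults, at least 4354-fold higher. In notochord and cartilage, 27 of the 38 tested members were higher in larval hearts and 4 were lower (median log2 fold change 5.31, or 4.83 with members at 0 counts at their bound); in liver and yolk, 31 of the 49 tested members were higher in larval hearts and 9 were lower (median log2 fold change 4.09, or 3.37 with members at 0 counts at their bound); in pigment cells and neural crest, 21 of the 28 tested members were higher in larval hearts and 3 were lower (median log2 fold change 4.19, or 3.85 with members at 0 counts at their bound). For brain and neurons, 37 of the 59 tested members were higher in larval hearts and 12 were lower (median log2 fold change 2.64, or 2.47 with members at 0 counts at their bound), yet the summed level was 748 and 800.0 CPM in larvae and 1089 and 959 CPM in adults. For kidney and ionocytes, 17 of the 23 tested members were higher in larval hearts and 3 were lower (median log2 fold change 5.62, or 3.44 with members at 0 counts at their bound), but the summed level was 729.6 and 662 CPM in larvae and 832 and 856 CPM in adults, the larval values being the smaller. The number higher was 10 without adult library 2. Single genes made up most of the adult sums of the brain and kidney lists. In the kidney list podxl, also listed for epicardium, stood at 47.1 and 41.5 CPM in larvae and 613 and 609.7 CPM in adults. In the brain list atp1a3b stood at 21.6 and 34.9 CPM in larvae and 689 and 494 CPM in adults. For hatching gland and fin fold, 16 of the 19 tested members were higher in larval hearts and 1 was lower (median log2 fold change 4.49, or 4.35 with members at 0 counts at their bound). In all, 149 genes had 0 counts in both adult libraries and a mean of at least 10 CPM in larval hearts, and they took 1.17% and 0.991% of larval counts. The opposite held for 14 genes, with 0.602% and 1.35% of adult counts. The part of this RNA in the results below was not tested. The marker values are repeated for some genes shared with another tissue, not for all of them. A gene given without them may be shared too.

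**Figure D1:**
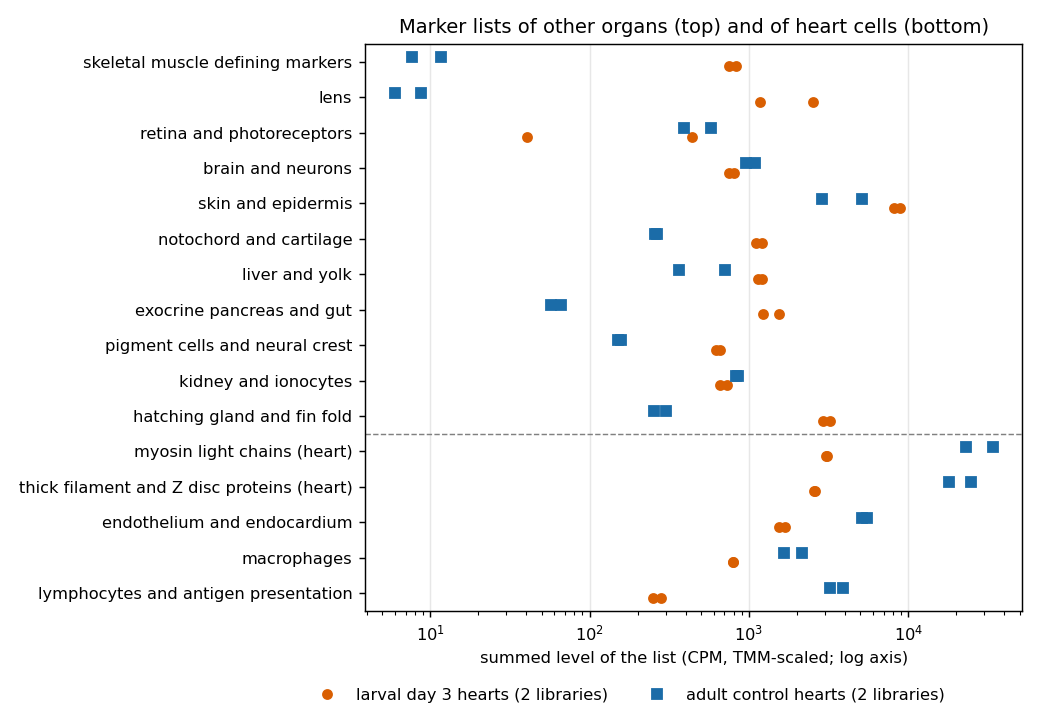
Summed level of marker lists in CPM (log axis) in the 2 larval day 3 libraries (circles) and the 2 adult control libraries (squares); lists above the dashed line mark other organs, lists below it heart cells. Skeletal muscle defining markers and lens genes summed to at most 11.7 CPM in adults and at least 753 CPM in larvae. The sum of the myosin light chain list was higher in both adult libraries. Of its 14 tested members, 7 were higher in larvae and 7 lower. The genes ckmt2a, atp1a3b and podxl make up most of the adult sums of the retina, brain and kidney lists.

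Levels were also set against myl7 within each library, a measure added after the levels had been seen. The log2 ratio of each gene to myl7 was fitted with limma over 19329 genes. It was higher in larval hearts for 16750 genes (86.7%) and lower for 286 genes (1.48%), so a gene that was lower in larval hearts even relative to myl7 belongs to a small group, whereas one that was higher does not. The 286 became 177 without either larval library, 185 without adult library 1 and 264 without adult library 2. This ratio does not depend on library scaling, but it moves with myl7 itself, which was 13067 and 19025 CPM in the adult libraries. The fit pooled the spread over genes, so the SE was 0.539 alike for cdh5, hbaa1 and fkbp5, given below. Adjusted p-values of these ratios therefore do not measure the spread of each gene's own libraries.

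Most genes of the thick filament and Z disc were lower in larval hearts, and a few relatives went the other way. In the list of thick filament and Z disc proteins, 6 of the 51 tested members were higher in larval hearts and 34 were lower (median log2 fold change -1.84), beside 32.6% higher and 27.6% lower over all genes. The myosin-binding protein gene mybpc3, whose product sets the pace of cross bridges, stood at 258 and 231 CPM in larvae and 4283 and 3636 CPM in adults (log2 fold change -4.02 ± 0.42, adjusted p = 2.3e-05). Relative to myl7 its log2 difference was -0.70 (adjusted p = 0.24). The calsarcin gene myoz2a, which ties the Z disc to calcineurin, stood at 0.483 and 0.58 CPM in larvae and 22.9 and 26.4 CPM in adults (log2 fold change -5.51 ± 0.36, adjusted p = 1.6e-06). The leiomodin gene lmod2b, which lengthens thin filaments, stood at 28.2 and 23.6 CPM in larvae and 598 and 506 CPM in adults (log2 fold change -4.41 ± 0.33, adjusted p = 3.1e-06). The co-chaperone gene bag3, which turns over damaged filament proteins, stood at 15.4 and 12.9 CPM in larvae and 159.7 and 136 CPM in adults (log2 fold change -3.39 ± 0.26, adjusted p = 3.1e-06). In each of these genes, named for a small p or a high level, both larval libraries lay below both adult libraries. The groups did not overlap in 83.7% of all genes tested. Relative to myl7, 5 of the 51 members were lower in larval hearts, myoz2a, myoz2b, lmod2b, ldb3b and fhl2b, 27 were higher and 19 did not pass. Of the 5, lmod2b was near the threshold (log2 difference -1.09, adjusted p = 0.048). Over all genes, 1.48% were lower and 86.7% higher by this measure.

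Among the motors, the ventricular myosin genes changed their balance. The gene vmhcl, a ventricular myosin heavy chain, stood at 704 and 577 CPM in larvae and 20634 and 20969 CPM in adults (log2 fold change -5.02 ± 0.51, adjusted p = 1.8e-05). Its relative vmhc, the ventricular myosin heavy chain whose promoter drives the ablation transgene of this study, stood at 439 and 369 CPM in larvae and 202 and 219.8 CPM in adults (log2 fold change 0.94 ± 0.32, adjusted p = 0.025), higher in larval hearts. Against the mean of the 3 adult groups, injured hearts included, its log2 fold change was -0.33, so the direction depends on which adults are compared. Leaving out any 1 of the 4 libraries compared ended the call on vmhc, with log2 fold changes between 0.80 and 1.07. The gene vmhc took 33.2% and 32.2% of the family's reads in larvae and 0.821% and 0.969% in adults, and vmhcl took 53.2% and 50.3% of the family's reads in larvae and 84% and 92.5% in adults. Relative to myl7, the log2 difference was 4.25 (adjusted p = 3.7e-14) for vmhc and -1.71 (adjusted p = 0.0093) for vmhcl. These genes are close in sequence, and no source used here says how reads matching both were handled, so their split is uncertain.

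The atrial heavy chain gene myh6 stood at 41.2 and 51.1 CPM in larvae and 2879 and 943 CPM in adults (log2 fold change -5.37 ± 0.64, adjusted p = 5.0e-05), and the adult libraries differed widely from each other. The slow heavy chain genes myh7ba and myh7bb were lower too, with log2 fold changes of -2.50 (adjusted p = 0.0017) and -2.03 (adjusted p = 0.00068). Against the mean of the 3 adult groups myh7ba did not pass (log2 fold change -0.95). The heavy chain list as a whole was split, since 5 of the 14 tested members were higher in larval hearts and 5 were lower (median log2 fold change -0.15). The list had 35.7% in each direction, beside 32.6% higher and 27.6% lower over all genes. Its risers other than vmhc were skeletal muscle genes such as myhb, at 40.1 and 28.4 CPM in larvae and 0.328 and 1.06 CPM in adults, and myhz2, at 16.9 and 14.7 CPM in larvae with 0 counts in adults.

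Light chain genes were split as well. The essential light chain gene cmlc1 stood at 122 and 102 CPM in larvae and 7977 and 12723 CPM in adults (log2 fold change -6.53 ± 0.61, adjusted p = 1.1e-05), a larger difference than that of myl7, and relative to myl7 its log2 difference was -3.18 (adjusted p = 4.2e-07). It took 7.24% and 5.79% of the family's reads in larvae and 37.9% and 40.1% in adults. The related genes myl4 and myl13 went the other way from low levels, with myl13 at 19 and 27.9 CPM in larvae and 0.41 and 0.472 CPM in adults (log2 fold change 5.70 ± 0.82, adjusted p = 0.00019). The gene myl4 stood at 6.21 and 4.93 CPM in larvae and 0.246 and 0.413 CPM in adults (log2 fold change 4.02 ± 0.56, adjusted p = 0.00016). The kinase gene mylk3, whose product phosphorylates the cardiac regulatory light chain, stood at 11 and 10.5 CPM in larvae and 248 and 256 CPM in adults (log2 fold change -4.55 ± 0.28, adjusted p = 1.0e-06). The kinase gene mylk4b stood at 9.14 and 7.19 CPM in larvae and 273 and 184 CPM in adults (log2 fold change -4.81 ± 0.38, adjusted p = 3.7e-06). For the myosin light chain list, 7 of the 14 tested members were higher in larval hearts and 7 were lower (median log2 fold change 0.11). That is 50% each, beside 32.6% higher and 27.6% lower over all genes.

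**Figure D2:**
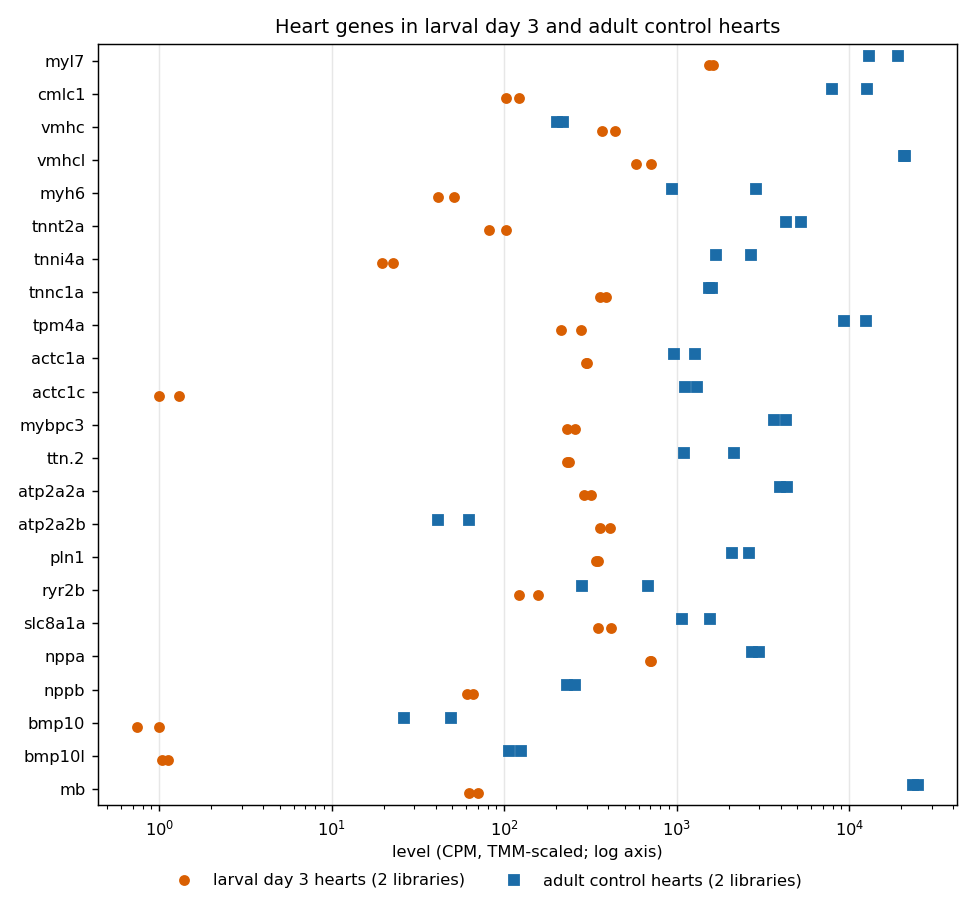
Level in CPM (log axis) of heart genes in each larval day 3 library (circles) and each adult control library (squares). Both larval points lie left of both adult points for every gene drawn except vmhc and atp2a2b, where they lie right of them. The groups did not overlap in 83.7% of all genes tested. The genes drawn are a selection. Among named genes not drawn, hand2, gata6, tbx5a and tbx20 overlapped, and myl4, myl13 and actc1b were higher in larvae.

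Thin filament genes were split, with fast skeletal troponins such as tnni2a.4 among the higher ones and cardiac troponin T among the lower ones. For the list, 14 of the 31 tested members were higher in larval hearts and 11 were lower (median log2 fold change 0.57). That is 45.2% and 35.5%, beside 32.6% and 27.6% over all genes. The cardiac troponin T gene tnnt2a, known in zebrafish as silent heart because hearts without it do not beat, stood at 102 and 81.4 CPM in larvae and 4275 and 5230.2 CPM in adults (log2 fold change -5.69 ± 0.50, adjusted p = 7.5e-06). Relative to myl7 its log2 difference was -2.38 (adjusted p = 6.3e-05). Its relatives tnnt2c and tnnt2d were higher in larval hearts from low levels, with tnnt2c at 11.8 and 9.93 CPM in larvae and 3.52 and 3.54 CPM in adults (log2 fold change 1.62 ± 0.38, adjusted p = 0.0037), and tnnt2b and tnnt2e did not pass. The call on tnnt2d was lost when any 1 of the 4 libraries was left out and with replicate number as a block (log2 fold change 1.61). The tropomyosin gene tpm4a stood at 277 and 212 CPM in larvae and 9312 and 12503 CPM in adults (log2 fold change -5.48 ± 0.55, adjusted p = 1.6e-05) and took 48.9% and 45.8% of the family's reads in larvae and 97.9% and 97.9% in adults. The related genes tpm2 and tpm3 did not pass, with log2 fold changes of -0.39 and 0.27.

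The cardiac troponin I and troponin C genes named here were all lower in larval hearts. The inhibitory subunit gene tnni1b stood at 130.1 and 124 CPM in larvae and 1877 and 2194 CPM in adults (log2 fold change -4.00 ± 0.47, adjusted p = 4.4e-05). The related gene tnni4a, in no list and picked with its values known, stood at 22.6 and 19.4 CPM in larvae and 1688 and 2699.9 CPM in adults (log2 fold change -6.70 ± 0.49, adjusted p = 2.6e-06). Relative to myl7 its log2 difference was -3.35 (adjusted p = 2.3e-09). The calcium-binding subunit gene tnnc1a stood at 357 and 387 CPM in larvae and 1531 and 1603 CPM in adults (log2 fold change -2.08 ± 0.36, adjusted p = 0.00066), and its relative tnnc1b stood at 45.9 and 40 CPM in larvae and 449 and 578 CPM in adults (log2 fold change -3.58 ± 0.39, adjusted p = 3.1e-05). Their ratio differed between ages (log2 ratio 1.49, SE 0.20, adjusted p = 0.00029), with tnnc1a taking 88.6% and 90.6% of the family's reads in larvae and 77.3% and 73.5% in adults.

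The sarcomeric actins exchanged members. The gene actc1c stood at 1.3 and 0.999 CPM in larvae and 1118 and 1313 CPM in adults (log2 fold change -10.04 ± 0.55, adjusted p = 6.3e-07), among the 12 largest falls of the naming rule. The gene actc1b stood at 258 and 278 CPM in larvae and 0.328 and 2.54 CPM in adults (log2 fold change 7.44 ± 0.73, adjusted p = 1.5e-05). The gene actc1a, expressed in both, stood at 299 and 303 CPM in larvae and 969 and 1282 CPM in adults (log2 fold change -1.90 ± 0.37, adjusted p = 0.0012). The gene actc1c took 0.15% and 0.115% of the family's reads in larvae and 38.5% and 32.6% in adults, and actc1b took 29.8% and 31.9% of the family's reads in larvae and 0.0113% and 0.0631% in adults. In larval zebrafish actc1b is a skeletal muscle gene, and the skeletal muscle defining markers summed to 829 and 753 CPM in larvae and 7.7 and 11.7 CPM in adults; their part in the rise of actc1b was not tested. The actin genes are close in sequence, so reads may be divided among them in a way that the counting rule decides.

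Calcium handling combined lower cardiac genes with an exchange between the sarcoplasmic reticulum pumps. The pump gene atp2a2a, which refills the calcium store of heart muscle, stood at 289.8 and 316 CPM in larvae and 3940.1 and 4344 CPM in adults (log2 fold change -3.77 ± 0.41, adjusted p = 2.7e-05). Its duplicate atp2a2b stood at 358 and 409 CPM in larvae and 62.1 and 41.3 CPM in adults (log2 fold change 2.89 ± 0.26, adjusted p = 7.8e-06), and their ratio differed between ages (log2 ratio -6.69, SE 0.38, adjusted p = 3.3e-06). The gene atp2a2b took 40.9% and 42.6% of the family's reads in larvae and 1.55% and 0.941% in adults. The part of other larval tissues in the rise of atp2a2b was not tested. The fast muscle pump gene atp2a1 stood at 226 and 233 CPM in larvae and 2.05 and 1.65 CPM in adults (log2 fold change 6.96 ± 0.49, adjusted p = 2.2e-06), beside the skeletal muscle markers above. Relative to myl7, atp2a2a differed by -0.46 (adjusted p = 0.45) and did not pass, whereas atp2a2b differed by 6.23 (adjusted p = 1.3e-28).

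The regulator and release genes were lower as well. The phospholamban gene pln1, in no list and picked with its values known, encodes the brake on the pump and stood at 341 and 349.7 CPM in larvae and 2616 and 2078 CPM in adults (log2 fold change -2.77 ± 0.39, adjusted p = 0.00015). The cardiac release channel gene ryr2b stood at 122 and 158 CPM in larvae and 681 and 284 CPM in adults (log2 fold change -1.79 ± 0.45, adjusted p = 0.0061). Without adult library 1 the call on ryr2b was lost, at a log2 fold change of -1.10. The sodium-calcium exchanger gene slc8a1a, which removes calcium after each beat, stood at 349 and 416 CPM in larvae and 1551 and 1078 CPM in adults (log2 fold change -1.78 ± 0.39, adjusted p = 0.0027). Relative to myl7, ryr2b and slc8a1a were higher in larval hearts, by 1.65 (adjusted p = 0.0027) and 1.55 (adjusted p = 0.0059). So were 40 of the 47 members of the calcium list, which is near the 86.7% of all genes. The release channels ryr1a and ryr1b exchanged places (log2 ratio 7.03, SE 0.46, adjusted p = 6.3e-06). The gene ryr1a stood at 12 and 9.9 CPM in larvae and 1.23 and 1.06 CPM in adults. Its relative ryr1b, also in the skeletal muscle list, stood at 5.39 and 5.58 CPM in larvae and 115 and 60.1 CPM in adults. Skeletal muscle defining markers summed to 829 and 753 CPM in larvae and 7.7 and 11.7 CPM in adults. Their part in this exchange was not tested. Over the calcium list, 17 of the 47 tested members were higher in larval hearts and 17 were lower (median log2 fold change 0.07). These shares, 36.2% each, stand beside 32.6% higher and 27.6% lower over all genes. Risers of the list include skeletal muscle genes such as pvalb2, a parvalbumin, at 61.2 and 60.7 CPM in larvae and 0 and 0.472 CPM in adults.

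**Figure D3:**
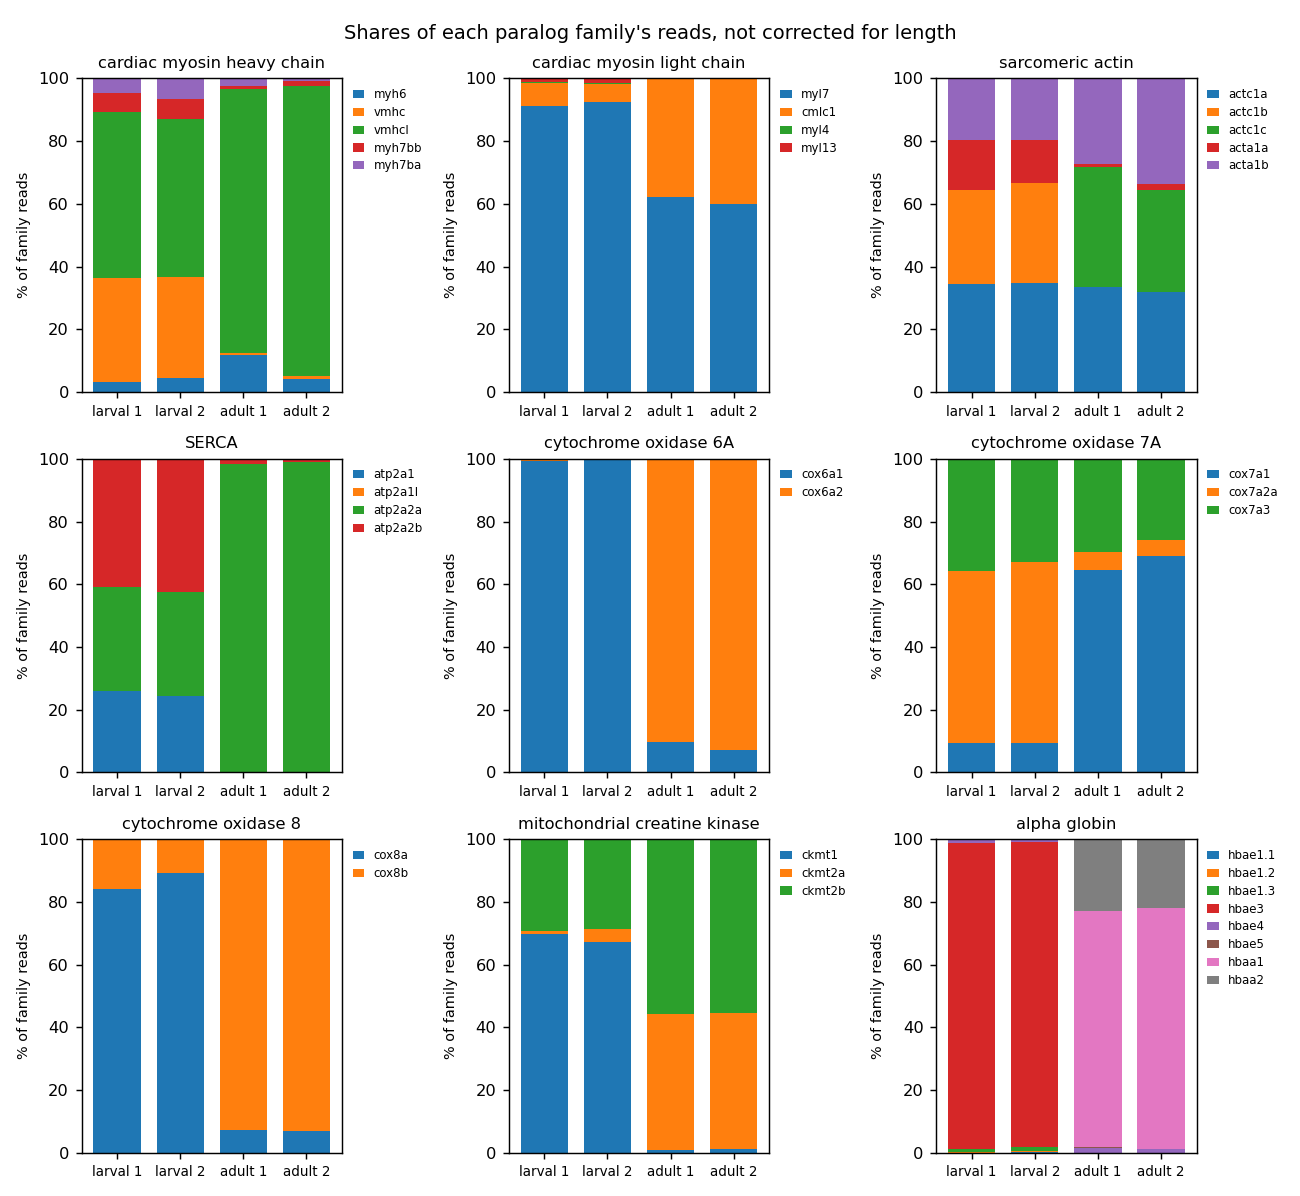
Share of reads (%) that each member took of its paralog family in the 2 larval day 3 and the 2 adult control libraries, not corrected for transcript length; hbae4 is the gene listed as hbz. The leading member differs between ages in the cytochrome oxidase 6A, 7A and 8, SERCA, mitochondrial creatine kinase and alpha globin families. Some shares differ between the 2 libraries of an age, as for myh6 with 11.7% and 4.16% in adults. In sarcomeric actin, actc1a led in both larval libraries, actc1c in adult library 1 (38.5%) and acta1b in adult library 2 (33.6%).

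Membrane channels and junctions were split. For ion channels and junctions, 10 of the 34 tested members were higher in larval hearts and 11 were lower (median log2 fold change 0.11). These shares, 29.4% and 32.4%, lie near the 32.6% higher and 27.6% lower over all genes. Under library totals the counts were 14 higher and 9 lower, beside 8640 higher and 3389 lower of all 19330 genes. The number higher was 6 without either larval library or without adult library 2. The connexin gene gja5a, whose product couples cells of the conduction path and atrium in mammals, stood at 2.38 and 1.48 CPM in larvae and 64.2 and 67.2 CPM in adults (log2 fold change -5.09 ± 0.34, adjusted p = 1.7e-06). The gene abcc9, which encodes the sensor subunit of ATP-sensitive potassium channels, stood at 18.6 and 22.4 CPM in larvae and 265 and 123 CPM in adults (log2 fold change -3.24 ± 0.43, adjusted p = 0.00011). The sodium pump gene atp1a1a.1 stood at 338 and 341 CPM in larvae and 497 and 536 CPM in adults and did not pass (log2 fold change -0.60, adjusted p = 0.056).

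The natriuretic peptides, hormones secreted by the heart, differed in direction, with nppa and nppb lower in larval hearts and nppal higher. In the wider list of natriuretic peptides and stress genes, 5 of the 18 tested members were higher in larval hearts and 7 were lower (median log2 fold change -0.35). The shares were 27.8% and 38.9%, beside 32.6% and 27.6% over all genes. Under library totals the balance turned to 8 higher and 5 lower, beside 8640 higher and 3389 lower of all 19330 genes. The atrial natriuretic peptide gene nppa stood at 702 and 712 CPM in larvae and 2987 and 2732 CPM in adults (log2 fold change -2.02 ± 0.32, adjusted p = 0.00036). The gene nppb, its neighbour and relative, stood at 60.6 and 65.8 CPM in larvae and 231 and 258 CPM in adults (log2 fold change -1.95 ± 0.27, adjusted p = 0.00015). Their ratio did not pass (log2 ratio -0.06, SE 0.35, adjusted p = 0.89), and against the mean of the 3 adult groups it was 1.63. Relative to myl7 both were higher in larval hearts, nppa by 1.30 (adjusted p = 0.029) and nppb by 1.37 (adjusted p = 0.014). The related peptide gene nppal, listed in the deposited table of symbols as zgc:195023, stood at 1.71 and 2.06 CPM in larvae and 0.656 and 0.413 CPM in adults (log2 fold change 1.85 ± 0.60, adjusted p = 0.021), a low level in both. Its call was lost without larval library 2 and without either adult library (log2 fold changes 1.71, 2.1 and 1.52), and against the mean of the 3 adult groups the value was -0.76. The growth factor gene bmp10, made by heart muscle and needed for its growth in mice, stood at 0.743 and 0.999 CPM in larvae and 49.3 and 26.1 CPM in adults (log2 fold change -5.42 ± 0.44, adjusted p = 4.4e-06). The gene bmp10l, picked with its values known, stood at 1.04 and 1.13 CPM in larvae and 125 and 106 CPM in adults (log2 fold change -6.72 ± 0.76, adjusted p = 3.8e-05). Both were lower relative to myl7 as well, with log2 differences of -1.90 (adjusted p = 0.0065) and -3.28 (adjusted p = 6.0e-08). The endothelin receptor gene ednrab stood at 2.49 and 3.16 CPM in larvae and 46.1 and 49.1 CPM in adults (log2 fold change -4.07 ± 0.35, adjusted p = 6.8e-06).

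Transcription factors of the heart were divided. In that list, which also holds bmp10 and bmp10l, 24 of the 56 tested members were higher in larval hearts and 20 were lower (median log2 fold change -0.14). The shares were 42.9% and 35.7%, beside 32.6% and 27.6% over all genes. The flow-responsive factor gene klf2a had the smallest p, at 10.6 and 10.9 CPM in larvae and 193 and 191 CPM in adults (log2 fold change -4.16 ± 0.23, adjusted p = 6.3e-07). The cardiac factor gene gata5 stood at 93.5 and 86.1 CPM in larvae and 202 and 222 CPM in adults (log2 fold change -1.24 ± 0.24, adjusted p = 0.0011). The following were picked with their values known. The gene nkx2.5, which specifies heart muscle, stood at 49.4 and 44 CPM in larvae and 148 and 196 CPM in adults (log2 fold change -1.88 ± 0.35, adjusted p = 0.00092). Relative to myl7 it was higher in larvae by 1.45 (adjusted p = 0.0093). The genes hand2, tbx5a, gata6 and tbx20 did not pass, with log2 fold changes of -0.23, -0.88, -0.38 and 0.51 and standard errors of 0.36, 0.52, 0.28 and 0.44. The early heart gene nkx2.7 stood at 9.48 and 6.71 CPM in larvae and 0.41 and 0.413 CPM in adults (log2 fold change 4.27 ± 0.67, adjusted p = 0.00032). The factor gene nr2f5, chosen by the rule, stood at 12.6 and 16.5 CPM in larvae and 0.574 and 0.59 CPM in adults (log2 fold change 4.62 ± 0.44, adjusted p = 1.1e-05). Several of these factors also act in other larval tissues, whose markers were higher in the same libraries, and their part was not tested.

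Energy metabolism genes were mostly lower in larval hearts, and within the respiratory chain the subunit relatives changed. The oxygen store gene myoglobin, mb, stood at 70.1 and 62.6 CPM in larvae and 23409.5 and 25122 CPM in adults (log2 fold change -8.51 ± 0.59, adjusted p = 2.0e-06). Relative to myl7 its log2 difference was -5.20 (adjusted p = 4.4e-16). For cytochrome oxidase, the last enzyme of the chain, 3 of the 18 tested members were higher in larval hearts and 11 were lower (median log2 fold change -0.99). That is 16.7% and 61.1%, beside 32.6% and 27.6% over all genes. The number lower was 7 under library totals (median log2 fold change -0.36), 7 without either larval library, 13 without adult library 1, and 7 without adult library 2 (median -0.52). The muscle form cox6a2 stood at 1.9 and 1.35 CPM in larvae and 249.7 and 382 CPM in adults (log2 fold change -7.60 ± 0.47, adjusted p = 1.1e-06), and the general form cox6a1 stood at 298 and 264 CPM in larvae and 26.3 and 29.6 CPM in adults (log2 fold change 3.33 ± 0.27, adjusted p = 5.0e-06). Thus cox6a1 took 99.4% and 99.5% of the family's reads in larvae and 9.53% and 7.18% in adults. The forms cox7a1 and cox7a2a moved in the same opposed way, with cox7a1 at 24.6 and 25.3 CPM in larvae and 218 and 399.8 CPM in adults (log2 fold change -3.63 ± 0.47, adjusted p = 8.6e-05). The gene cox7a2a stood at 147 and 153 CPM in larvae and 18.7 and 28.5 CPM in adults (log2 fold change 2.66 ± 0.25, adjusted p = 1.0e-05). Markers of other organs were higher in the same larval libraries, the skin and epidermis list at 8921 and 8179 CPM against 2895 and 5099.9 CPM in adults. Their part in the rises of cox6a1, cox7a2a and cox8a, given next, was not tested.

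The pair cox8a and cox8b gave a further exchange (log2 ratio 6.43, SE 0.31, adjusted p = 1.4e-06). The gene cox8a stood at 132 and 144 CPM in larvae and 25.9 and 43.8 CPM in adults and cox8b at 24.6 and 17.2 CPM in larvae and 334 and 575 CPM in adults. Of the subunit 4 genes, cox4i1l stood at 74.1 and 70.3 CPM in larvae and 1096 and 1911 CPM in adults (log2 fold change -4.38 ± 0.45, adjusted p = 2.0e-05). The gene cox4i1 stood at 424 and 417 CPM in larvae and 714 and 1170.2 CPM in adults (log2 fold change -1.16 ± 0.35, adjusted p = 0.015). The call on cox4i1 was lost under library totals (log2 fold change -0.53) and without either larval library or adult library 2 (-1.18, -1.14 and -0.77). The gene cox5b2 stood at 1.97 and 1.84 CPM in larvae and 330.0 and 457 CPM in adults (log2 fold change -7.69 ± 0.47, adjusted p = 1.0e-06). Relative to myl7, cox5b2 and cox6a2 were lower in larval hearts, with log2 differences of -4.28 (adjusted p = 1.9e-14) and -4.18 (adjusted p = 1.2e-13). These falls exceeded that of the cardiomyocyte marker. The gene cox8b was near the threshold (log2 difference -1.09, adjusted p = 0.049). By this measure 12 of the 18 members were higher, beside 86.7% of all genes, and 3 were lower, beside 1.48%. In the other respiratory complexes, 0 of the 76 tested members were higher in larval hearts and 40 were lower (median log2 fold change -0.82). That is 0% and 52.6%, beside 32.6% and 27.6% over all genes. Under library totals the counts were 1 higher and 24 lower, beside 8640 higher and 3389 lower of all 19330 genes. The 40 became 27 and 22 without larval library 1 or 2, and 55 and 25 without adult library 1 or 2. The adenine nucleotide carrier slc25a5, which trades ATP for ADP across the inner membrane, stood at 6059.7 and 6073 CPM in larvae and 14826 and 21963 CPM in adults (log2 fold change -1.60 ± 0.45, adjusted p = 0.01), a call lost without either larval library, at -1.61 and -1.59.

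Among energy buffering genes, relatives also changed in opposite directions. In creatine and adenylate kinases, 4 of the 19 tested members were higher in larval hearts and 10 were lower (median log2 fold change -1.13). These shares, 21.1% and 52.6%, stand beside 32.6% and 27.6% over all genes. The muscle creatine kinase genes ckma and ckmb formed a switch (log2 ratio -6.07, SE 0.29, adjusted p = 1.4e-06). The gene ckma stood at 578 and 605 CPM in larvae and 2797 and 3583 CPM in adults (log2 fold change -2.43 ± 0.42, adjusted p = 0.00065). The gene ckmb stood at 316 and 322 CPM in larvae and 20.2 and 31.8 CPM in adults (log2 fold change 3.61 ± 0.30, adjusted p = 4.9e-06). The mitochondrial form ckmt1 stood at 145 and 135 CPM in larvae and 7.13 and 14.6 CPM in adults (log2 fold change 3.68 ± 0.33, adjusted p = 8.0e-06). The gene ckmt2a stood at 1.67 and 8.58 CPM in larvae and 379 and 562 CPM in adults (log2 fold change -6.51 ± 0.71, adjusted p = 2.9e-05). The gene ckmt2b stood at 60.4 and 57.6 CPM in larvae and 483 and 714 CPM in adults (log2 fold change -3.34 ± 0.44, adjusted p = 0.00011). The adenylate kinase gene ak1, which regenerates ATP from ADP, stood at 12.4 and 9.35 CPM in larvae and 1449 and 2409 CPM in adults (log2 fold change -7.47 ± 0.51, adjusted p = 1.9e-06) and differed relative to myl7 by -4.11 (adjusted p = 3.1e-13). The genes ckma and ckmb are also expressed in skeletal muscle, whose markers were higher in the larval libraries, and that part was not tested. The part of other larval tissues in the rise of ckmt1 was not tested either.

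Glycolysis genes were mostly lower. In that list, 8 of the 53 tested members were higher in larval hearts and 30 were lower (median log2 fold change -1.15). These shares, 15.1% and 56.6%, stand beside 32.6% and 27.6% over all genes. The number higher was 4 without larval library 2. The gene gapdh stood at 2113 and 2291 CPM in larvae and 16042 and 23311 CPM in adults (log2 fold change -3.16 ± 0.53, adjusted p = 0.00048). The phosphofructokinase gene pfkmb, the muscle form, stood at 66.3 and 68.7 CPM in larvae and 521 and 499 CPM in adults (log2 fold change -2.92 ± 0.36, adjusted p = 7.2e-05). The gene pfkpa did not pass (log2 fold change 0.16, SE 0.22, adjusted p = 0.53). The muscle mutase gene pgam2 stood at 14 and 8.77 CPM in larvae and 177 and 233 CPM in adults (log2 fold change -4.17 ± 0.37, adjusted p = 7.4e-06). The gene pgam1a did not pass (log2 fold change 0.37, SE 0.24, adjusted p = 0.2). Among aldolases, aldoaa and aldoab were both lower and their ratio did not pass (log2 ratio 0.47, SE 0.24, adjusted p = 0.12). The kinase gene pdk2b, which holds back pyruvate oxidation, stood at 1.67 and 1.39 CPM in larvae and 209 and 154 CPM in adults (log2 fold change -6.89 ± 0.47, adjusted p = 1.9e-06) and was the 1 member of the list that was lower relative to myl7, with a log2 difference of -3.46 (adjusted p = 2.8e-09).

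In fatty acid uptake and oxidation, 16 of the 61 tested members were higher in larval hearts and 34 were lower (median log2 fold change -1.04). That is 26.2% and 55.7%, beside 32.6% and 27.6% over all genes. The very long chain dehydrogenase gene acadvl stood at 184 and 201 CPM in larvae and 858 and 1019 CPM in adults (log2 fold change -2.29 ± 0.36, adjusted p = 0.00032). The muscle carnitine transferase gene cpt1b stood at 15.6 and 11.3 CPM in larvae and 148 and 156 CPM in adults (log2 fold change -3.50 ± 0.25, adjusted p = 2.4e-06), and its relative cpt1cb stood at 16.7 and 21.9 CPM in larvae and 0.656 and 1.06 CPM in adults (log2 fold change 4.45 ± 0.54, adjusted p = 5.7e-05). The heart fatty acid binding protein gene fabp3 stood at 149 and 166 CPM in larvae and 536 and 911 CPM in adults (log2 fold change -2.20 ± 0.38, adjusted p = 0.00059). The gene fabp11a stood at 27.7 and 22.9 CPM in larvae and 359 and 620.3 CPM in adults (log2 fold change -4.27 ± 0.36, adjusted p = 5.8e-06). The intestinal form fabp2 stood at 155 and 135 CPM in larvae and 0.0819 and 0.059 CPM in adults, and it also belongs to the gut list. Under library totals the counts were 20 higher and 24 lower for fatty acid genes and 15 higher and 22 lower for glycolysis. Over all 19330 genes that scaling gave 8640 higher and 3389 lower, against 6304 and 5339 under TMM. The shift is therefore not particular to these lists.

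**Figure D4:**
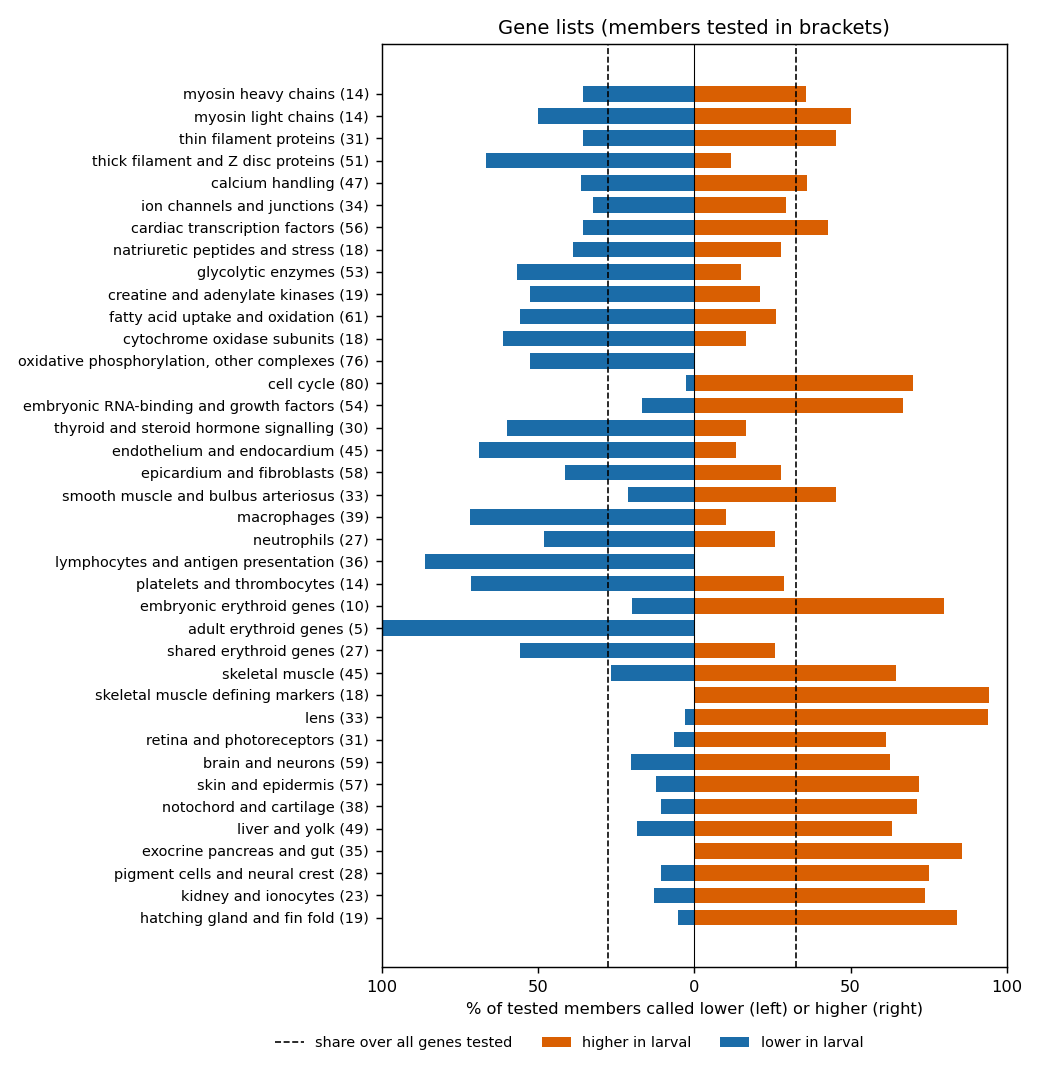
Share of tested members of each list called lower (left, blue) or higher (right, orange) in larval day 3 hearts; dashed lines mark 27.6% and 32.6%, the shares over all genes tested. Under TMM scaling thick filament and Z disc, metabolic, endothelial, macrophage and lymphocyte lists lean to the left, and cell cycle, embryonic growth and other organs' lists to the right.

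Proliferation genes were higher in larval hearts. In the cell cycle list, 56 of the 80 tested members were higher in larval hearts and 2 were lower (median log2 fold change 1.99). That is 70% and 2.5%, beside 32.6% and 27.6% over all genes. The replication clamp gene pcna stood at 350.4 and 332 CPM in larvae and 47.3 and 46.8 CPM in adults (log2 fold change 2.86 ± 0.30, adjusted p = 2.5e-05). The cyclin gene ccnd1, which starts the cycle, stood at 125 and 129 CPM in larvae and 28 and 29.4 CPM in adults (log2 fold change 2.14 ± 0.23, adjusted p = 2.7e-05). The gene ccne2, which opens replication, stood at 23.4 and 15.2 CPM in larvae and 1.23 and 0.944 CPM in adults (log2 fold change 4.16 ± 0.45, adjusted p = 2.6e-05). The mitotic genes ccnb1 and cdk1 were picked with their values known. For ccnb1 the levels were 60.1 and 58.1 CPM in larvae and 3.2 and 2.71 CPM in adults (log2 fold change 4.33 ± 0.52, adjusted p = 5.6e-05). For cdk1 the levels were 64.9 and 68.7 CPM in larvae and 3.61 and 3.66 CPM in adults (log2 fold change 4.20 ± 0.63, adjusted p = 0.00025). Relative to myl7, all 80 members tested were higher, beside 86.7% of all genes. The tissue in which these genes were transcribed cannot be read from bulk libraries.

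Embryonic growth regulators were higher as well. In that list, 36 of the 54 tested members were higher in larval hearts and 9 were lower (median log2 fold change 1.25). These shares, 66.7% and 16.7%, stand beside 32.6% and 27.6% over all genes. The RNA-binding protein gene igf2bp1, which guards fetal transcripts, stood at 174 and 168 CPM in larvae and 1.64 and 2.89 CPM in adults (log2 fold change 6.20 ± 0.32, adjusted p = 4.5e-07). The related gene igf2bp3 stood at 36.3 and 33.4 CPM in larvae and 0.492 and 0.59 CPM in adults (log2 fold change 5.98 ± 0.54, adjusted p = 8.4e-06). The chromatin gene hmga2 stood at 59.5 and 69.9 CPM in larvae and 0.983 and 0.413 CPM in adults (log2 fold change 6.59 ± 0.45, adjusted p = 1.9e-06). The gene lin28a, which blocks maturation of let-7 microRNAs and was picked with its values known, stood at 4.53 and 4.64 CPM in larvae with 0 counts in adults, at least 44.6-fold higher.

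Hormone-responsive genes formed the opposite group. In thyroid and steroid hormone signalling, 5 of the 30 tested members were higher in larval hearts and 18 were lower (median log2 fold change -1.57). That is 16.7% and 60%, beside 32.6% and 27.6% over all genes. The thyroid hormone receptor gene thrb stood at 4.57 and 7.06 CPM in larvae and 36.1 and 35 CPM in adults (log2 fold change -2.61 ± 0.30, adjusted p = 4.2e-05). The gene thraa did not pass (log2 fold change -0.21, SE 0.28, adjusted p = 0.54). The glucocorticoid target gene fkbp5, picked with its values known, stood at 6.87 and 7.32 CPM in larvae and 876 and 748 CPM in adults (log2 fold change -6.84 ± 0.74, adjusted p = 2.8e-05). The enzyme gene hsd11b2, which inactivates cortisol, stood at 73.5 and 72.6 CPM in larvae and 863 and 935 CPM in adults (log2 fold change -3.62 ± 0.27, adjusted p = 2.6e-06). The clock genes per1a and per1b, both also glucocorticoid targets, fell together, per1b at 1.11 and 1.16 CPM in larvae and 163 and 136 CPM in adults (log2 fold change -7.03 ± 0.34, adjusted p = 4.2e-07). The gene per1a stood at 0.223 and 0.0967 CPM in larvae and 42.1 and 23.1 CPM in adults (log2 fold change -7.64 ± 0.60, adjusted p = 3.8e-06), and their ratio did not pass (log2 ratio 0.00, SE 0.43, adjusted p = 1). The clock repressor gene nr1d1 stood at 0.0743 and 0.129 CPM in larvae and 105 and 83.6 CPM in adults (log2 fold change -9.74 ± 0.37, adjusted p = 2.3e-07). The hour of collection is not given in the labels, and its part in the clock genes was not tested.

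Vessel and lining genes were mostly lower. In endothelium and endocardium, 6 of the 45 tested members were higher in larval hearts and 31 were lower (median log2 fold change -1.73). These shares, 13.3% and 68.9%, stand beside 32.6% and 27.6% over all genes. The receptor gene tek stood at 4.01 and 4.22 CPM in larvae and 62.2 and 64.1 CPM in adults (log2 fold change -3.94 ± 0.24, adjusted p = 1.0e-06). The gene flt1 stood at 9.44 and 10.7 CPM in larvae and 120.5 and 92.6 CPM in adults (log2 fold change -3.40 ± 0.23, adjusted p = 1.9e-06). The gene spock3 stood at 43.4 and 55.7 CPM in larvae and 1176 and 1881 CPM in adults (log2 fold change -4.95 ± 0.42, adjusted p = 5.9e-06). Among genes picked with their values known, the vascular cadherin gene cdh5 stood at 265 and 283 CPM in larvae and 307 and 267 CPM in adults and did not pass (log2 fold change -0.07, SE 0.23, adjusted p = 0.82), and the hyaluronan synthase gene has2, needed for valve cushions, stood at 64.3 and 72.1 CPM in larvae and 2.87 and 2.3 CPM in adults (log2 fold change 4.73 ± 0.37, adjusted p = 3.4e-06).

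Smooth muscle and outflow genes gave another exchange. In that list, 15 of the 33 tested members were higher in larval hearts and 7 were lower (median log2 fold change 1.37). That is 45.5% and 21.2%, beside 32.6% and 27.6% over all genes. The elastin genes, which build the elastic wall of the bulbus arteriosus, formed a switch (log2 ratio -10.32, SE 0.45, adjusted p = 1.3e-06). The gene elnb stood at 440.5 and 684 CPM in larvae and 6.8 and 3.01 CPM in adults (log2 fold change 6.86 ± 0.70, adjusted p = 1.9e-05). The gene elna stood at 1.78 and 2.55 CPM in larvae and 31.6 and 18.5 CPM in adults (log2 fold change -3.52 ± 0.40, adjusted p = 3.8e-05). The gene elnb took 99.6% and 99.6% of the family's reads in larvae and 17.7% and 14% in adults. The fibulin gene fbln5, which assembles elastic fibres, stood at 109 and 124 CPM in larvae and 9.26 and 14.2 CPM in adults (log2 fold change 3.30 ± 0.28, adjusted p = 6.3e-06). The factor gene foxf1 stood at 46 and 46.6 CPM in larvae and 0.41 and 0.177 CPM in adults (log2 fold change 7.35 ± 0.55, adjusted p = 2.9e-06), and it is also a gene of gut mesenchyme. In epicardium and fibroblasts, 16 of the 58 tested members were higher in larval hearts and 24 were lower (median log2 fold change -0.15). The shares were 27.6% and 41.4%, beside 32.6% and 27.6% over all genes. Under library totals the balance turned to 25 higher and 14 lower, beside 8640 higher and 3389 lower of all 19330 genes. The gene podxl stood at 47.1 and 41.5 CPM in larvae and 613 and 609.7 CPM in adults (log2 fold change -3.79 ± 0.28, adjusted p = 3.0e-06).

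Blood genes exchanged embryonic for adult globins. The embryonic alpha globin gene hbae3 stood at 266 and 185 CPM in larvae and 0.246 and 0 CPM in adults, and it took 97.6% and 97.2% of the family's reads in larvae and 0.0163% and 0% in adults. The embryonic beta globin gene hbbe1.1 stood at 21.7 and 14 CPM in larvae and 0.0819 and 0 CPM in adults. The adult alpha globin gene hbaa1 had 0 counts in both larval libraries and 1141 and 4248 CPM in adults, at least 52026-fold lower against 3 counts over the larval group. The adult beta globin gene hbba2 stood at 0.111 and 0.0322 CPM in larvae and 648 and 2287 CPM in adults (log2 fold change -14.23 ± 1.17, adjusted p = 5.0e-06). The gene hbz, also named hbae4, went against its embryonic group, at 2.53 and 1.23 CPM in larvae and 24.1 and 60.7 CPM in adults (log2 fold change -4.51 ± 0.49, adjusted p = 2.9e-05). In the list of embryonic erythroid genes, 8 of the 10 tested members were higher in larval hearts and 2 were lower (median log2 fold change 6.93, or 3.81 with members at 0 counts at their bound), and all 5 adult erythroid genes were lower. In shared erythroid genes, 7 of the 27 tested members were higher in larval hearts and 15 were lower (median log2 fold change -2.04), with the factor gene gata1a at 0.706 and 0.484 CPM in larvae and 54.7 and 63.3 CPM in adults (log2 fold change -6.63 ± 0.28, adjusted p = 2.8e-07). Beside these list counts, 32.6% of all genes tested were higher and 27.6% lower. Globin genes are near-identical copies, so the split among members of 1 stage is uncertain.

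Lymphocyte and macrophage lists were mostly lower, while some inflammatory genes were higher. Beside the list counts that follow, 32.6% of all genes tested were higher and 27.6% lower. In lymphocytes and antigen presentation, 0 of the 36 tested members were higher in larval hearts and 31 were lower (median log2 fold change -3.95). The invariant chain of MHC class II is encoded by cd74a and cd74b. For cd74a the levels were 0.223 and 0.0645 CPM in larvae and 357 and 554 CPM in adults (log2 fold change -11.61 ± 0.50, adjusted p = 2.8e-07). For cd74b the levels were 0.26 and 0.226 CPM in larvae and 233 and 324 CPM in adults (log2 fold change -10.13 ± 0.38, adjusted p = 2.3e-07). In macrophages, 4 of the 39 tested members were higher in larval hearts and 28 were lower (median log2 fold change -4.13), and the complement gene c1qc stood at 0.111 and 0.0322 CPM in larvae and 41.5 and 64.3 CPM in adults (log2 fold change -9.44 ± 0.60, adjusted p = 1.4e-06). In neutrophils, 7 of the 27 tested members were higher in larval hearts and 13 were lower (median log2 fold change -1.12), with lyz, the lysozyme gene, at 0.855 and 1.77 CPM in larvae and 205 and 99 CPM in adults (log2 fold change -6.83 ± 0.54, adjusted p = 3.7e-06) and the protease gene mmp9 at 369.8 and 442 CPM in larvae and 6.47 and 5.31 CPM in adults (log2 fold change 6.11 ± 0.41, adjusted p = 1.6e-06). The cytokine gene il1b, picked with its values known, stood at 86.5 and 75 CPM in larvae and 0.901 and 1 CPM in adults (log2 fold change 6.39 ± 0.43, adjusted p = 1.7e-06). The gene irg1l stood at 169.7 and 193 CPM in larvae and 0.164 and 0.118 CPM in adults (log2 fold change 10.29 ± 0.40, adjusted p = 3.0e-07). Skin and epidermis genes summed to 8921 and 8179 CPM in larvae and 2895 and 5099.9 CPM in adults. The part of skin and other larval tissues in the rises of mmp9, il1b and irg1l was not tested. In platelets and thrombocytes, 4 of the 14 tested members were higher in larval hearts and 10 were lower (median log2 fold change -3.78), and the receptor gene itga2b stood at 0.334 and 0.29 CPM in larvae and 53.8 and 44.3 CPM in adults (log2 fold change -7.27 ± 0.41, adjusted p = 7.6e-07).

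Relatives were then compared over the whole table. Of 2168 pairs of genes whose symbols differ only by a final a or b, the ratio within a library differed between ages in 1246 (57.5%, limma, adjusted p under 0.05). A switch, in which the ratio passed and the members were called in opposite directions, was found in 262 pairs (12.1%). In 688 of the other called pairs 1 member was called, in 253 both were called in 1 direction, and in 43 neither was. No share of switches was computed for pairs of unrelated genes. With 32.6% of all genes higher and 27.6% lower, opposite calls arise in such pairs too, so 12.1% is not read as an excess. Some pairs are not relatives, since a symbol can end in a or b for a subunit, and among 1316 pairs whose descriptions also differ only in that letter, a subset added after the data were seen, 780 ratios differed and 166 were switches. In 163 of the 262 switches all 4 injured adult libraries lay nearer to the adult control ratio than to the larval ratio, and in 2 all 4 lay nearer to the larval ratio. The number of switches was 144 and 141 without larval library 1 or 2, and 202 and 172 without adult library 1 or 2.

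The 15 switches with the smallest p cover matrix, membrane and metabolic genes. For collagen I, col1a1a stood at 2081 and 2364 CPM in larvae and 280.2 and 349 CPM in adults (log2 fold change 2.82 ± 0.30, adjusted p = 2.4e-05). The gene col1a1b stood at 219 and 220.4 CPM in larvae and 431 and 616 CPM in adults (log2 fold change -1.25 ± 0.27, adjusted p = 0.0023). For annexin 2, a membrane-binding protein, anxa2a stood at 109 and 92.8 CPM in larvae and 523 and 777 CPM in adults (log2 fold change -2.69 ± 0.33, adjusted p = 5.8e-05). The gene anxa2b stood at 158 and 128 CPM in larvae and 0.0819 and 0 CPM in adults. Its binding partner S100a10 changed too, with s100a10a at 271 and 223 CPM in larvae and 4.26 and 13.8 CPM in adults (log2 fold change 4.75 ± 0.47, adjusted p = 1.5e-05). The gene s100a10b stood at 126 and 124 CPM in larvae and 217 and 416 CPM in adults (log2 fold change -1.34 ± 0.32, adjusted p = 0.0042). Skin and epidermis genes summed to 8921 and 8179 CPM in larvae and 2895 and 5099.9 CPM in adults, and their part in these pairs was not tested.

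Metabolic pairs included slc43a2a and slc43a2b, transporters of large neutral amino acids. The gene slc43a2a stood at 26.2 and 29.9 CPM in larvae and 295 and 279 CPM in adults (log2 fold change -3.36 ± 0.33, adjusted p = 1.6e-05). The gene slc43a2b stood at 18.3 and 26.3 CPM in larvae and 2.38 and 3.19 CPM in adults (log2 fold change 2.99 ± 0.38, adjusted p = 7.9e-05). The glycogen-targeting genes ppp1r3ca and ppp1r3cb changed in opposite directions, with ppp1r3ca at 28.5 and 25.5 CPM in larvae and 1.97 and 3.36 CPM in adults (log2 fold change 3.32 ± 0.41, adjusted p = 6.4e-05). The gene ppp1r3cb stood at 70.1 and 71.7 CPM in larvae and 244 and 405 CPM in adults (log2 fold change -2.20 ± 0.36, adjusted p = 0.00041). The glutathione peroxidase gene gpx1a stood at 60.3 and 52.7 CPM in larvae and 191 and 287 CPM in adults (log2 fold change -2.08 ± 0.27, adjusted p = 9.4e-05). The gene gpx1b stood at 85.6 and 69 CPM in larvae and 1.48 and 2.77 CPM in adults (log2 fold change 5.15 ± 0.38, adjusted p = 2.8e-06). The alcohol dehydrogenase gene adh8b stood at 179.9 and 182 CPM in larvae and 14.9 and 21.2 CPM in adults (log2 fold change 3.32 ± 0.24, adjusted p = 2.4e-06). The gene adh8a stood at 0.111 and 0.322 CPM in larvae and 27.4 and 49.1 CPM in adults (log2 fold change -7.38 ± 0.57, adjusted p = 3.4e-06).

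In muscle and junction pairs, the LIM protein gene fhl1a stood at 60.5 and 55.1 CPM in larvae and 525 and 753 CPM in adults (log2 fold change -3.47 ± 0.34, adjusted p = 1.5e-05). The gene fhl1b stood at 66.5 and 72.6 CPM in larvae and 25.1 and 38.5 CPM in adults (log2 fold change 1.13 ± 0.24, adjusted p = 0.002). The desmosome gene pkp3b stood at 19.1 and 16.7 CPM in larvae and 158 and 155 CPM in adults (log2 fold change -3.13 ± 0.22, adjusted p = 2.3e-06). The gene pkp3a stood at 25.5 and 19.3 CPM in larvae and 0.246 and 0.177 CPM in adults (log2 fold change 6.71 ± 0.61, adjusted p = 9.6e-06). Further pairs of the 15, beside elastin, ckm and cox8 given above, were the galectins lgals2a and lgals2b, with a log2 ratio of -9.83, and frmd4ba and frmd4bb, with 4.71. The log2 ratios of the 15 switches ran from -12.61 for anxa2a over anxa2b to 9.25 for pkp3a over pkp3b. The pair of desmin genes, picked with its values known, was a switch as well (log2 ratio -7.66, SE 0.45, adjusted p = 3.6e-06). The gene desma stood at 121 and 106 CPM in larvae and 1200.3 and 1292 CPM in adults and desmb at 11 and 7.29 CPM in larvae and 0.492 and 0.295 CPM in adults; desmin links Z discs.

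**Figure D5:**
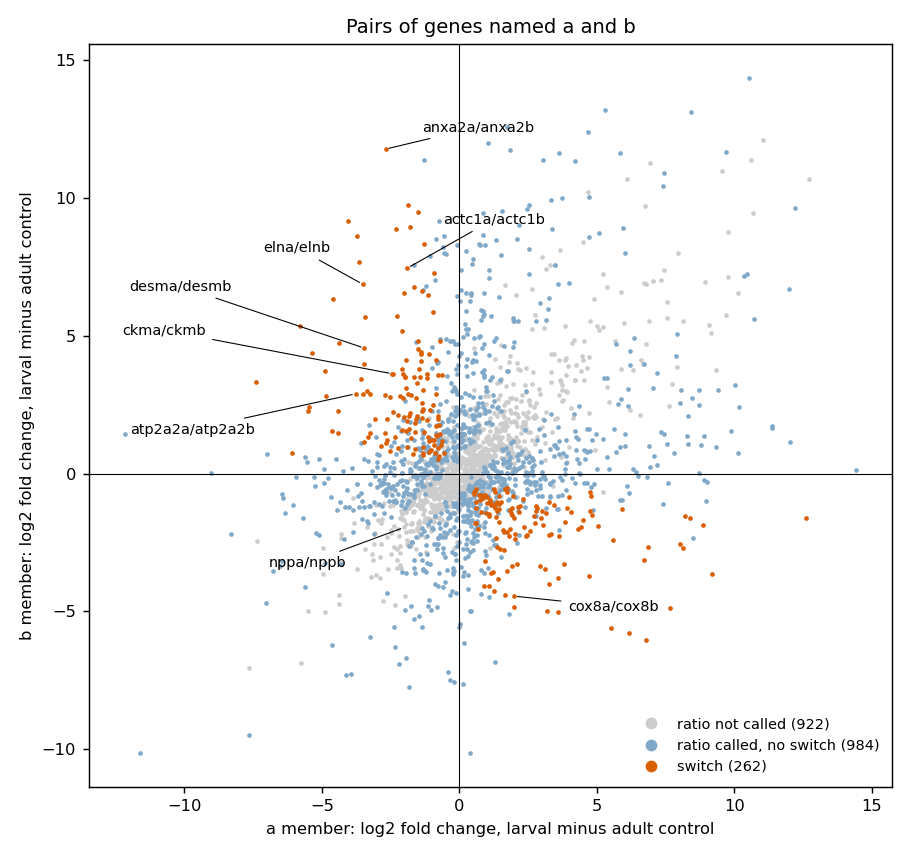
Log2 fold change of the a member (x axis) and of the b member (y axis) of each of 2168 gene pairs, larval day 3 minus adult control; grey, ratio not called (922); blue, ratio called without a switch (984); orange, switch (262). Switches lie in the upper left and lower right, and nppa/nppb lies near the diagonal with both members lower.

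The largest differences under the naming rule came from both sides. Of the 12 largest rises, krtt1c19e, a keratin, stood at 277 and 204 CPM in larvae and 0 and 0.413 CPM in adults, elf3, an epithelial factor, at 131 and 116 CPM in larvae and 0.164 and 0.118 CPM in adults, and vil1, a brush border gene, at 157 and 115 CPM in larvae and 0.328 and 0.118 CPM in adults. The biosynthetic genes hmgcra, of sterol synthesis, and phgdh, of serine synthesis, rose. For hmgcra the levels were 156 and 166 CPM in larvae and 0.246 and 0.059 CPM in adults (log2 fold change 10.12 ± 0.41, adjusted p = 2.5e-07). For phgdh the levels were 255 and 277 CPM in larvae and 0.246 and 0.649 CPM in adults (log2 fold change 9.11 ± 0.72, adjusted p = 4.0e-06). The others were irg1l, and2, crygn2, cldni, cldn7b, pcxb and atp1a1a.4. Of the 12 largest falls, the complement gene c4 stood at 0 and 0.161 CPM in larvae and 153 and 141 CPM in adults (log2 fold change -10.63 ± 0.49, adjusted p = 3.2e-07), the Wnt antagonist gene frzb at 0.409 and 0.806 CPM in larvae and 110.0 and 177 CPM in adults (log2 fold change -7.85 ± 0.42, adjusted p = 5.5e-07). The gene hif1al2 stood at 0.706 and 0.58 CPM in larvae and 106 and 176 CPM in adults (log2 fold change -7.77 ± 0.48, adjusted p = 1.2e-06). The others were hbba2, cd74a, cd74b, actc1c, nr1d1, c1qc, mb, ftr76 and cpn2. None of the 24 overlapped between the 2 groups, which the rule required.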

How the data were processed

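Total RNA was extracted with TRIzol and sequenced on an Illumina HiSeq, per the labels' protocols. Reads were aligned with TopHat2 2.0.13 to GRCz10 and HTSeq was used, per the submitters' processing notes. No source used here gives the annotation release, strand setting or treatment of reads with several matches. The deposited count table holds whole read counts for 31953 genes, not normalized by the authors. A second table deposited by the authors holds RPM of 6 adult libraries; its values equal count over total within a relative tolerance of 0.0001, with the numbers of the 2 control libraries reversed. It served only for symbols (23350 genes); 4026 more came from a gene name table and 4577 had none.

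Genes passing filterByExpr were fitted over all 8 libraries with TMM scaling and the quasi-likelihood test of edgeR 4.0.16 (R 4.3.3, 4 residual degrees of freedom), with Benjamini-Hochberg adjustment over 19330 genes. Ratios within pairs of symbols ending in a and b, and to myl7, were fitted with limma 3.58.1 after a log2 transform (prior count 2). Pairs by symbol include genes that are not relatives. No gene lengths were used, so levels are not compared between genes. The gene test and the pair test were run on simulated data, and the fit of ratios to myl7 was not. In a simulation of the larval against adult comparison over 18091 genes, 3% of genes changed 2-fold and 67% of those changed 4-fold were called. Few genes were changed there and 73 were called in all, whereas 60.2% of genes passed in the data. The simulated rates therefore do not carry over to this comparison. Libraries of a group differed by more than sampling noise, so none was counted as a repeat. A single gene tested alone by exact permutation of 2 against 2 libraries cannot reach a p below 0.333. Bounds and floors (3 counts over a group) cover counting error only.

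Members and lists were chosen with earlier results of these data known. Genes named were the most abundant member and the 3 of smallest p in each list; each member of a paralog family; the 15 switches with the smallest p; and the 12 largest rises and falls among called genes whose higher group averaged 10 CPM or more, more than 3 counts in each group, groups that did not overlap, and no clone name. Families and lists were not all printed in full. Genes named outside this rule were chosen after their values were seen; beside those marked in the text these are ldb3b, fhl2b, myoz2b and nkx2.7. Some genes that the rule names, 1 switch among them, are not reported here. Alternatives were other scalings, DESeq2 1.42.0, filters, libraries in the fit, the contrast, the replicate block and each library left out.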

Additional observations from a re-analysis of the deposited data

How the results depend on the processing

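The number of genes that differed stayed within 1.5 times the 11643 reported under every scaling, filter, choice of libraries and contrast tried, and DESeq2 called 10985. Leaving out 1 library gave 8296 to 10025 genes, with 4564 to 5077 higher and 3732 to 4948 lower. Under library totals 3389 genes were lower, fewer than the 5339 reported. With replicate number as a block, 10989 genes (5944 higher, 5045 lower), 1201 pair ratios, 235 switches and 346 genes lower relative to myl7 passed; the block ended the call of tnnt2d and of no other named gene. Same-numbered larval and adult control libraries deviated in opposite directions (r = -0.14), and a block with the control numbers crossed, chosen after seeing the data, gave 11471 genes. Without 1 library, pair ratios that differed ranged from 865 to 1069, switches from 141 to 202, and genes lower relative to myl7 from 177 to 264 (15808 to 17562 in either direction). Restricting pairs to matching descriptions, also chosen after seeing the data, left 780 ratios and 166 switches because fewer pairs were tested. Of 164 named genes that passed, 157 kept their call under each of them and with each library left out; the others are cox4i1, myh7ba, nppal, ryr2b, slc25a5, tnnt2d and vmhc. Against the mean of the 3 adult groups, vmhc turned to -0.33, nppal to -0.76 and the ratio of nppa to nppb to 1.63; the cause was not tested. All 18 named pairs that passed kept their call. Many named genes and pairs were picked by small p or large change in these data, so their kept calls are not separate support. Depth limits genes at 0 counts in a group, for which only bounds are given.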
